A study of Mus musculus with 48 samples.

Results

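The interleukin receptor genes are the chains of the cell surface and soluble receptors that bind interleukins. They were taken as every endogenous gene of the panel whose symbol is Il, digits and then r, leaving out Il1rn, Il1rl1 and Il2ra. This rule gave 25 of the 547 endogenous genes. C3H/HeOuJ, an inbred strain, provided the RNA, from the epididymal fat pad, a white adipose depot next to the testis. It was counted on the nCounter Mouse Immunology panel, on which barcoded probes are hybridised to transcripts and counted without amplification. The mice ate one of 6 diets with free access for 6 months. Chow (PicoDiets) was the diet of 8 samples. The custom DYETS diets combined a carbohydrate with a fatty acid, and were sucrose/palmitate (8 samples), starch/palmitate (7), sucrose/oleate (9) and starch/oleate (9). A Tekland Western diet made the sixth group (7). In the Western diet and the custom diets, 42% of the calories came from carbohydrate and 42% from fat. Chow therefore differs from each other diet in more than its sugar or its fatty acid. Ages are not given in the sources used here. The labels number the samples of a group but do not say that each is a separate mouse, so that p-values measure the spread between these samples.

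Interleukin receptors are built from chains that work in pairs or larger complexes. A chain specific to a cytokine usually joins a chain that several cytokines share, such as the common gamma chain, gp130, Il10rb or Il1rap, and signals through Janus kinases and STAT proteins or, in the IL-1 and IL-17 families, through adaptor proteins that lead to NF-κB. In adipose tissue these receptors are carried by macrophages, lymphocytes and innate lymphoid cells as well as by adipocytes and stromal cells, and obesity is known to bring macrophages into the fat pad.

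The promoter windows of 4 genes are shown because the results turn on them. Il12rb2 and Il23r are direct neighbours on chromosome 6 with no protein-coding gene between them, and Il13ra1 and Il1rap were the receptor genes that were higher than in chow under all 5 other diets with reference gene scaling. Each window runs from 250 bases before to 50 bases after the RefSeq gene start in GRCm38.p6, 5′ to 3′ on the gene's strand. The positions are chr6:67376139-67376438 on the minus strand for Il12rb2, chr6:67491806-67492105 on the minus strand for Il23r, chrX:36111858-36112157 on the plus strand for Il13ra1 and chr16:26581455-26581754 on the plus strand for Il1rap. Capitals mark matches to the motifs searched.
Il12rb2: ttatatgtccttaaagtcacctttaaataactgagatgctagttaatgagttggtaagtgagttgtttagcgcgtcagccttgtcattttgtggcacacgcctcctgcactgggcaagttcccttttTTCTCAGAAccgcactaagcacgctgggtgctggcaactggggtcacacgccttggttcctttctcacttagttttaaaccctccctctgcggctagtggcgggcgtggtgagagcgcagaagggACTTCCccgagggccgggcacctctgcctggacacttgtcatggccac
Il23r: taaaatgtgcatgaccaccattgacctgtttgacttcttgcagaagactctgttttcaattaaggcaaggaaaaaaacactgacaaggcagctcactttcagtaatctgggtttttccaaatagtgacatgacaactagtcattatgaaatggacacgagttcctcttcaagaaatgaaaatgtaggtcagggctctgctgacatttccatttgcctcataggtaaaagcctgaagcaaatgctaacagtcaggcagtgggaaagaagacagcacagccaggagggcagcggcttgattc
Il13ra1: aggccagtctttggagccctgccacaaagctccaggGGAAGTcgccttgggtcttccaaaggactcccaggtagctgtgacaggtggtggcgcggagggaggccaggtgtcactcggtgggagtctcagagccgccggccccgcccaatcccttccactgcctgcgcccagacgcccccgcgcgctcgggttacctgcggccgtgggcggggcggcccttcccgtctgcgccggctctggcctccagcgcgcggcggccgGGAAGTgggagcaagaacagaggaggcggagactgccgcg
Il1rap: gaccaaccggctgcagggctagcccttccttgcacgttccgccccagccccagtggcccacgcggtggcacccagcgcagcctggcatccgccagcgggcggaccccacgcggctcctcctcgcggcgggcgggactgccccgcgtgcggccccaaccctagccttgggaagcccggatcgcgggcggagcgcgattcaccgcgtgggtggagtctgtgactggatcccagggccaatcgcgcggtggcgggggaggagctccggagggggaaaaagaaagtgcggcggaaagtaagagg
The motifs, searched on both strands, were TTCNNNGAA for STAT proteins, GGAAGT for ETS factors, TGANTCA for AP-1 and TGTGGT for RUNX factors. They occur in 8.29%, 23.8%, 7.81% and 16.8% of 32817 RefSeq windows of this length. The Il12rb2 window held 1 STAT match, TTCTCAGAA, and 1 ETS match on the opposite strand. Il13ra1 held 2 ETS matches, and the windows of Il23r and Il1rap held none of these letters. No matches overlapped. The windows were 53%, 43%, 71% and 72% G or C in the order shown. RefSeq windows were matched for 18 of the 25 genes. A match is a description of these letters and was not tied to binding.

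Total counts of the endogenous and reference genes ranged from 396391 to 888687 per sample (median 635028.5). Values below are scaled counts, that is, counts divided by a factor from the geometric mean of 14 reference genes of the panel. Because different genes have different probes, levels are compared between diets and not between genes. The adipocyte genes Cfd, Pparg and Cd36 were present in every library, with summed scaled counts from 23950 upwards. Of the reference genes themselves, 1, 4, 5, 9 and 7 of 14 passed the test against chow in the sucrose/palmitate, starch/palmitate, sucrose/oleate, starch/oleate and Western diet groups. In all, 6 libraries stood apart. Starch/palmitate replicates 1 and 3, starch/oleate replicates 2 and 6 and Western diet replicate 6 had high epithelial genes (Defb1, a beta-defensin, at 2176.7 to 17524.5), and Western diet replicate 2 had 173665.5 scaled counts of Clu, which encodes clusterin. Sucrose/oleate replicate 2 had a summed level of lymph node genes of 6467, against 887 in the next highest library of its group. Its neutrophil genes summed to 5253, against 1519 in the next highest. The ratio of positive control A to positive control B was 3.17 to 3.39 in chow, 2.92 to 3.16 in starch/palmitate and 2.92 to 3.07 in sucrose/oleate, so that for these 2 diets the ratio and the diet cannot be told apart. In bulk tissue, fewer cells of a type and less RNA per cell cannot be told apart either.

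Il12rb1, which encodes the chain shared by the receptors of IL-12 and IL-23, and Il22ra2, which encodes a soluble protein that binds IL-22, lay near the negative probes. The 8 negative probes of each sample averaged 7.51 raw counts with a maximum of 21. A gene was taken as above them where its raw count passed their mean plus 2 SD, which was 8.41 to 20.95 counts by sample. Il12rb1 passed in 9 of 48 samples (raw counts 3 to 18, mean 10.46) and Il22ra2 in 9 (3 to 100, mean 13.94). Without its 3 highest libraries Il22ra2 averaged 9.96, under the minimum mean count of 10 for testing. Il12rb2, Il17re and Il18rap passed in 43 samples each, Il1r2 in 47 and Il23r in 40. The other 18 genes passed in all 48. All 25 genes met the minimum mean count.

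**Figure D1:**
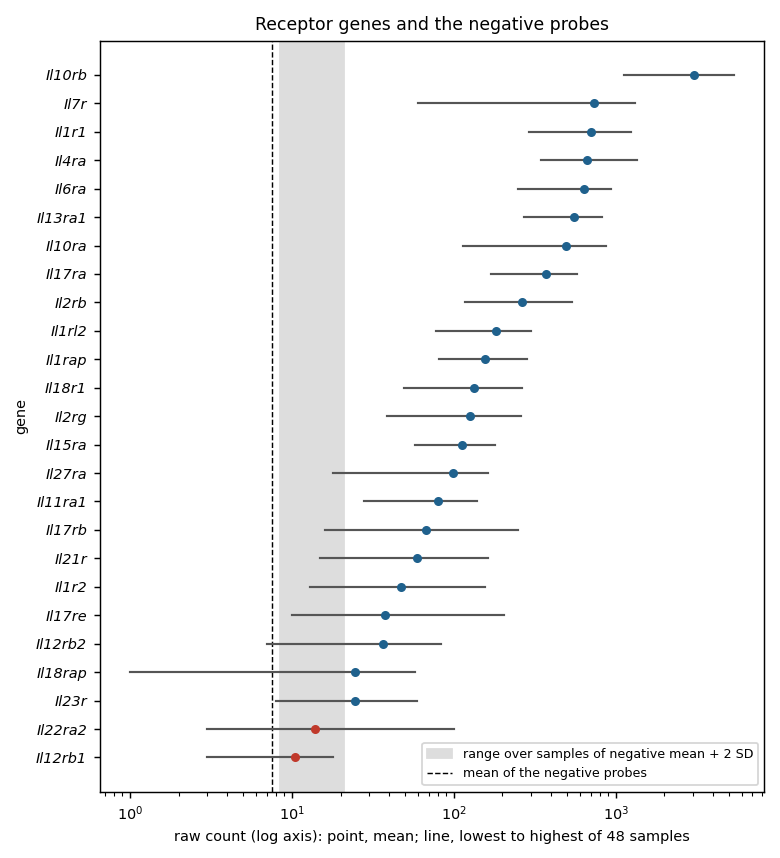
Raw counts of the 25 receptor genes on a log axis, with the mean over 48 samples as a point and the range as a line. The band spans the negative probe thresholds of the samples (8.41 to 20.95 counts); Il22ra2 and Il12rb1, in red, have their means inside it.

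Levels of 20 of the 25 receptor genes differed among the 6 diets (edgeR's quasi-likelihood F test, Benjamini-Hochberg adjusted over 491 genes), against 64.8% of all genes tested. The 20 include Il22ra2 (adjusted p = 0.0131), which reached the minimum mean count only through its 3 highest libraries. The smallest adjusted p-values belonged to Il12rb2 (7.61e-08), Il13ra1 (2.8e-06), Il10rb (3.28e-06), Il1rap (2.09e-05), Il1rl2 (4.08e-05) and Il11ra1 (5.4e-05). Il18rap (0.118), Il6ra (0.182), Il17rb (0.266), Il4ra (0.428) and Il12rb1 (0.946) did not pass in this edgeR test.

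**Figure D2:**
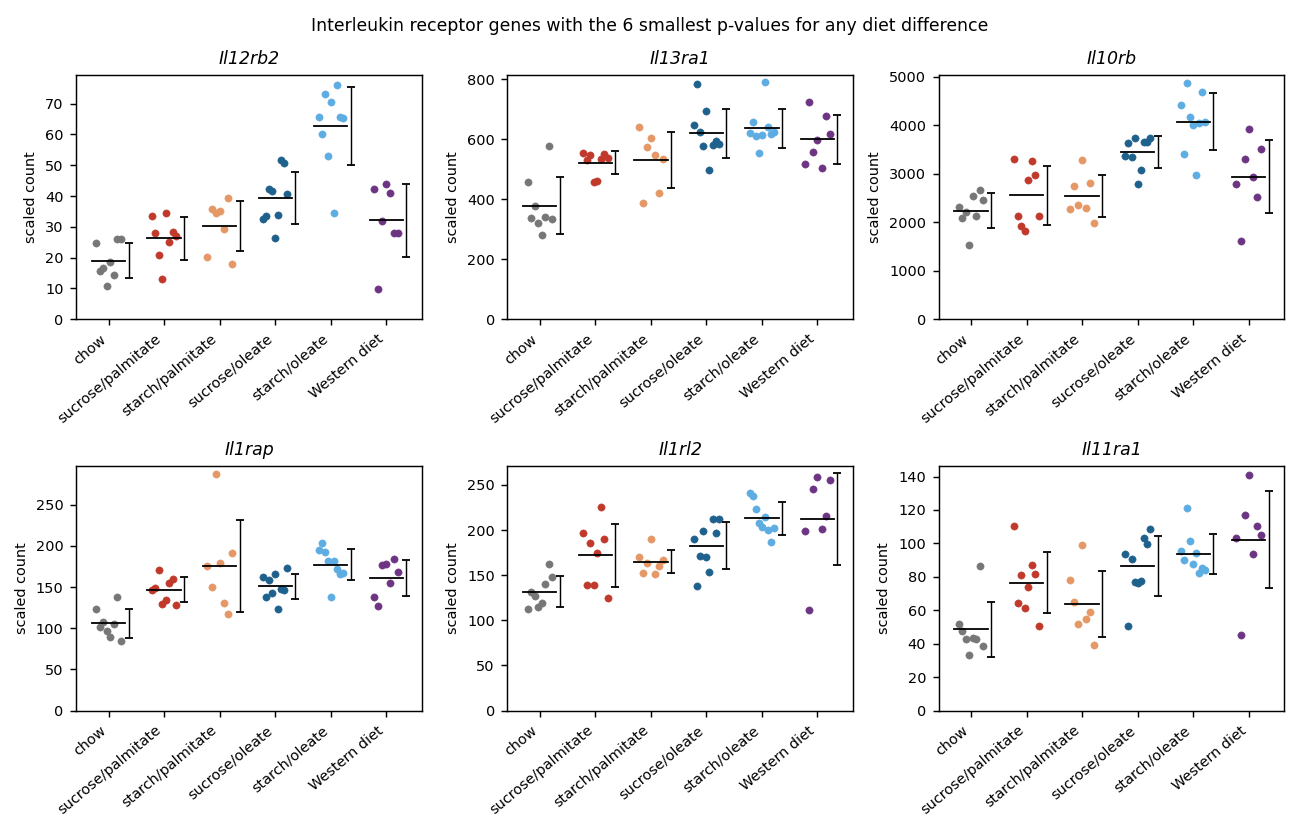
Scaled counts of the 6 receptor genes with the smallest p-values, by diet, with a point for each library, a line at the mean and a bar for 1 SD. Il12rb2 averaged 19.06 in chow and 62.65 in starch/oleate, and Il11ra1 had its highest mean, 102.3, in the Western diet.

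Against chow, the count of receptor genes that rose was 6 in sucrose/palmitate, where 14.9% of all genes rose, and 5 in starch/palmitate, where 20.6% rose. It was 12 in sucrose/oleate (28.9% of all genes), 17 in starch/oleate (48.3%) and 11 in the Western diet (32.8%). Il15ra and Il17re fell in sucrose/oleate, where 7.74% of all genes fell, and Il15ra fell in starch/oleate, where 12% fell. In the palmitate and Western diet groups 0 of 25 fell (2.24%, 4.68% and 7.94% of all genes). The median log2 difference over the 25 genes was 0.39, 0.39, 0.51, 0.74 and 0.40 in this order of diets, against 0.20, 0.24, 0.19, 0.34 and 0.25 over all 491 genes. Counting both directions, 6, 5, 14, 18 and 11 of the 25 passed, against 17.1%, 25.3%, 36.7%, 60.3% and 40.7% of all genes. The 5 comparisons share the chow samples. TMM scaling, which centres on most genes instead of the reference genes, brought the median of all genes to 0.06, 0.08, 0.01, 0.03 and 0.06 and that of the receptor genes to 0.22, 0.26, 0.32, 0.42 and 0.20. Under TMM 3, 5, 11, 16 and 7 receptor genes rose and 0, 2, 2, 3 and 1 fell, where 6.92%, 14.7%, 21.6%, 31.8% and 20.6% of all genes rose and 5.91%, 11.2%, 15.5%, 25.9% and 14.3% fell. Where the ratio of the positive controls entered the fit as a covariate, 0 of the 5 calls in starch/palmitate and 1 of the 14 in sucrose/oleate (Il13ra1) passed, and all 18 in starch/oleate did. Over all genes that fit called 0.407%, 6.31% and 55.6% in these diets. The called receptor genes of starch/palmitate and sucrose/oleate all kept their sign in it, with a median size of 0.50 and 0.45, against 0.71 and 0.72 without the covariate, and a median SE of 0.27 and 0.28, against 0.20 and 0.19.

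TMM scaling ended 13 calls. Il1r1 lost all of its calls, in sucrose/palmitate (0.36, edgeR adjusted p = 0.15), starch/oleate (0.22, 0.27) and the Western diet (0.38, 0.084). Il13ra1 (0.32, 0.052) and Il1rl2 (0.22, 0.16) lost theirs in sucrose/palmitate, and Il18r1 in sucrose/oleate (0.37, 0.056). In the Western diet Il10rb (0.17, 0.23), Il1r2 (0.81, 0.092) and Il7r (0.56, 0.11) lost theirs. Il13ra1 (-0.16, 0.11) and Il1rl2 (-0.14, 0.13) did so between palmitate and oleate, and Il12rb2 (-0.37, 0.052) and Il1rap (-0.17, 0.15) between sucrose and starch. Il15ra in starch/palmitate (-0.51, 0.026) and Il17re in starch/oleate (-0.88, 0.035) fell under TMM scaling in addition.

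**Figure D3:**
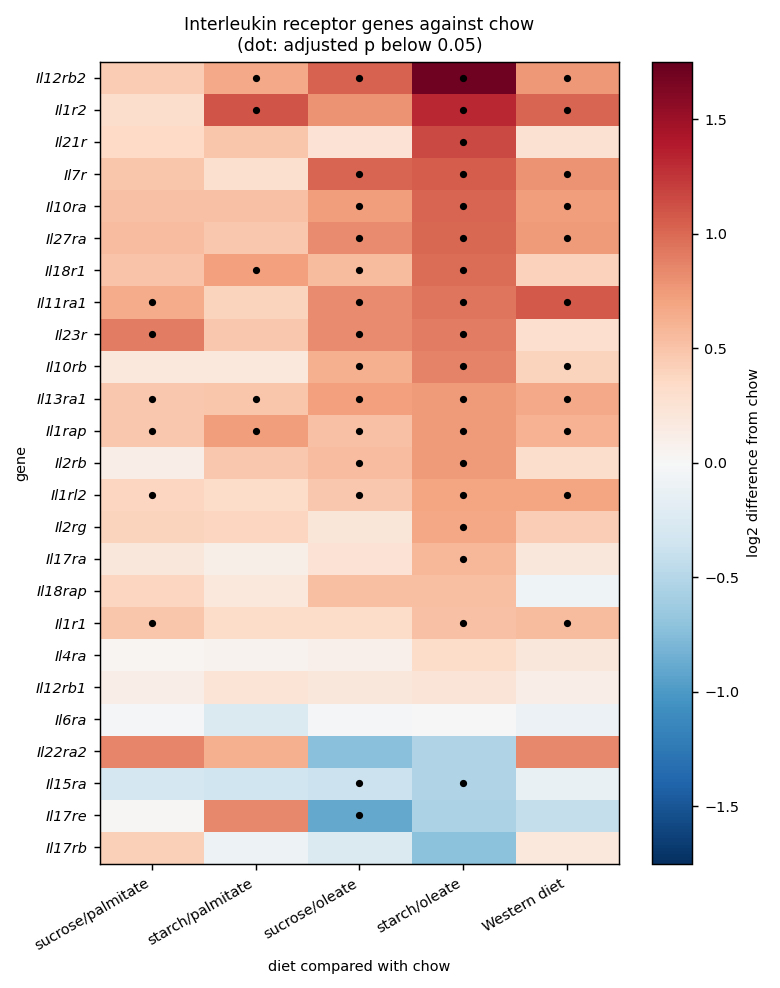
Log2 difference from chow of the 25 receptor genes (rows) in the 5 other diets (columns), with a dot where the adjusted p is below 0.05. The starch/oleate column holds 18 dots and the starch/palmitate column 5.

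All starch/oleate libraries lay above all chow libraries for 9 of the 25 receptor genes, against 19.6% of all genes. These were Il10rb, Il12rb2, Il18r1, Il1r2, Il1rap, Il1rl2, Il27ra, Il2rb and Il2rg. In sucrose/oleate the same held for Il10rb, Il12rb2 and Il27ra (5.3% of all genes). In sucrose/palmitate (0.204%), starch/palmitate (0.204%) and the Western diet (3.05%) it held for 0 receptor genes. The 18 calls in starch/oleate passed with every library left out in turn.

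Among the receptors of the IL-12 family, Il12rb2, the signalling chain of the IL-12 receptor, showed the largest difference of any receptor gene from chow, in starch/oleate. Its scaled counts (lowest, median, highest) were 10.73, 17.65 and 26.02 in chow, 13.02, 27.53 and 34.63 in sucrose/palmitate, and 17.99, 34.39 and 39.22 in starch/palmitate. They were 26.38, 40.62 and 51.59 in sucrose/oleate, 34.55, 65.54 and 76.14 in starch/oleate, and 9.95, 32.06 and 44.05 in the Western diet. Both oleate groups lay wholly above chow, and the other 3 overlapped it. In chow Il12rb2 passed the negative probe threshold in 6 of 8 samples, against 9 of 9 in starch/oleate. The size of its fold therefore rests partly on a chow level near background. The log2 difference from chow was 1.71 (SE 0.21, edgeR adjusted p = 8.8e-09) in starch/oleate, 1.04 (adjusted p = 0.00017) in sucrose/oleate, 0.76 (0.0055) in the Western diet and 0.66 (0.023) in starch/palmitate. The last was lost, with an adjusted p of up to 0.058, when chow replicate 4 or 6 or starch/palmitate replicate 3, 4 or 6 was left out.

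Il23r, the chain specific to IL-23, was lower counted, and its values (lowest, median, highest) were 9.97, 16.48 and 21.77 in chow and 18.87, 28.99 and 38.35 in starch/oleate. In sucrose/oleate they were 11.31, 29.66 and 40.30, and in sucrose/palmitate 19.97, 23.11 and 66.84. All 3 groups overlapped chow. In chow Il23r was above the negative probe threshold in 4 of 8 samples, so that its fold rests on a level near background. It rose by 0.90 (SE 0.25, edgeR adjusted p = 0.0019) in starch/oleate, 0.82 (0.0082) in sucrose/oleate and 0.89 (0.019) in sucrose/palmitate on the log2 scale. Without sucrose/palmitate replicate 7, the library at 66.84, the difference in that diet was 0.61 (0.078). Il27ra, the IL-27 receptor chain that pairs with gp130, had 50.93, 63.15 and 73.27 (lowest, median, highest) in chow, 90.96, 115.72 and 137.43 in sucrose/oleate, and 112.27, 128.16 and 137.60 in starch/oleate. In the Western diet it had 25.59, 104.92 and 161.89, with the lowest in replicate 2. Chow lay below all libraries of both oleate groups. Il27ra rose in starch/oleate by 1.00 (SE 0.19, edgeR adjusted p = 2.6e-05), in sucrose/oleate by 0.82 (0.001) and in the Western diet by 0.74 (0.0035). Il12rb1 averaged between 9.27 and 11.04 scaled counts by diet and was called in no comparison.

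Of the chains that bind IL-4 and IL-13, Il13ra1, which joins Il4ra to form the receptor for both cytokines, rose in all 5 diets with reference gene scaling, with an adjusted p of 0.052 under TMM in sucrose/palmitate, and Il4ra was called in none. Il13ra1 had 280.95, 338.64 and 577.32 scaled counts (lowest, median, highest) in chow and 459.21, 536.27 and 554.74 in sucrose/palmitate. It had 389.34, 548.76 and 640.09 in starch/palmitate, 497.58, 593.07 and 783.52 in sucrose/oleate, 553.43, 620.66 and 790.70 in starch/oleate, and 504.41, 596.90 and 725.12 in the Western diet. Every group overlapped chow, whose highest library was replicate 7. The log2 differences were 0.47 (edgeR adjusted p = 0.0066), 0.49 (0.002), 0.71 (2.8e-06), 0.75 (SE 0.11, 2.6e-07) and 0.66 (1.9e-05) in this order. Il4ra had a mean of 610.45 ± 47.61 (SD, n = 8) in chow and 761.05 ± 152.55 (n = 9) in starch/oleate. Its difference there was 0.32 (SE 0.17, edgeR adjusted p = 0.096). It passed in a fit of the compared groups only (0.015) and without the 6 libraries standing apart (0.40, 0.028), and not under TMM scaling (-0.002). Sucrose/oleate replicate 2, the library with high lymph node genes, held 1513.32 scaled counts of Il4ra against a group median of 545.53.

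The common gamma chain Il2rg and its partners Il2rb (IL-2 and IL-15), Il7r (IL-7) and Il21r (IL-21) all rose in starch/oleate. Il7r had 71.53, 447.78 and 773.14 (lowest, median, highest) in chow, 552.94, 983.84 and 1136.08 in sucrose/oleate, 610.30, 1014.74 and 1181.66 in starch/oleate, and 199.05, 839.88 and 1053.94 in the Western diet. Chow overlapped each of them. The log2 differences were 1.02 (edgeR adjusted p = 0.0038) in sucrose/oleate, 1.05 (SE 0.28, 0.0014) in starch/oleate and 0.79 (0.029) in the Western diet. The last was lost without chow replicate 2 or 4 or Western diet replicate 4 or 7 (adjusted p up to 0.073). Il21r had 30.14, 37.79 and 69.39 in chow and 64.09, 85.31 and 138.03 in starch/oleate, and it rose there by 1.15 (SE 0.26, edgeR adjusted p = 0.00015) and was called in no other diet.

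Il2rb had 143.07, 199.35 and 253.48 (lowest, median, highest) in chow and 256.21, 308.23 and 540.89 in starch/oleate, where the groups did not overlap. It rose by 0.74 (SE 0.19, edgeR adjusted p = 0.00065) there and by 0.54 (0.019) in sucrose/oleate, and the latter was lost without sucrose/oleate replicate 7 (0.45, adjusted p = 0.055). Il2rg had 76.30, 98.19 and 106.02 in chow and 121.06, 159.45 and 178.85 in starch/oleate, again with no overlap, and a difference of 0.67 (SE 0.19, adjusted p = 0.0018). Il15ra, the chain that presents IL-15, had 62.43, 143.70 and 190.75 in chow, 78.11, 97.92 and 130.90 in sucrose/oleate, and 66.60, 91.56 and 119.95 in starch/oleate, all inside or overlapping the wide chow range. Il15ra fell by 0.53 (edgeR adjusted p = 0.0012) in starch/oleate and by 0.38 (0.029) in sucrose/oleate on the log2 scale. The sucrose/oleate call was lost without chow replicate 1, 2, 4 or 6 or sucrose/oleate replicate 1 or 2 (adjusted p up to 0.11).

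Of the receptors that signal through gp130, Il11ra1, which binds IL-11, rose in 4 diets, and Il6ra, which binds IL-6, in none. Il11ra1 had 33.38, 43.26 and 86.74 scaled counts (lowest, median, highest) in chow, 50.87, 77.42 and 110.47 in sucrose/palmitate, and 50.37, 90.74 and 108.90 in sucrose/oleate. It had 82.56, 90.00 and 120.96 in starch/oleate and 45.50, 105.30 and 140.97 in the Western diet. Each group overlapped chow, whose highest library was replicate 7. The differences were 1.07 (SE 0.19, edgeR adjusted p = 3e-05) in the Western diet, 0.94 (2.2e-05) in starch/oleate, 0.83 (0.00042) in sucrose/oleate and 0.65 (0.019) in sucrose/palmitate. Without sucrose/palmitate replicate 1 the last was 0.56 (0.057). Il6ra averaged 548.28 to 659.70 by diet. Under TMM scaling, but not under reference gene scaling, it was called lower in starch/palmitate (-0.41), starch/oleate (-0.32) and the Western diet (-0.32).

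Both chains of the IL-10 receptor rose in the oleate and Western diets. Il10rb, which also serves the receptors of IL-22 and of the lambda interferons, had 1529.61, 2259.08 and 2672.66 (lowest, median, highest) in chow, 2793.94, 3623.24 and 3743.92 in sucrose/oleate, and 2963.21, 4070.18 and 4874.69 in starch/oleate. It had 1605.21, 2926.38 and 3928.33 in the Western diet. Both oleate groups lay wholly above chow, and the Western diet overlapped it. The log2 differences were 0.62 (edgeR adjusted p = 0.00036), 0.86 (SE 0.13, 9.5e-07) and 0.39 (0.023). The last was lost without chow replicate 4 or Western diet replicate 4 or 7 (0.31 at the lowest, adjusted p = 0.09). Il10ra, the ligand-binding chain, had 169.29, 304.01 and 432.75 in chow and 420.30, 644.54 and 794.88 in starch/oleate. It rose by 1.02 (SE 0.22, edgeR adjusted p = 9.1e-05) in starch/oleate, 0.73 (0.0067) in sucrose/oleate and 0.74 (0.0083) in the Western diet. Il22ra2 was called against chow in no diet. Its 3 highest libraries were Western diet replicate 2 (100.95), sucrose/palmitate replicate 2 (87.31) and starch/palmitate replicate 7 (52.92), beside group medians of 9.34, 12.22 and 13.15.

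In the IL-1 family, Il1rap, the coreceptor that IL-1, IL-33 and IL-36 share, rose in all 5 diets. It had 84.72, 103.43 and 137.83 (lowest, median, highest) in chow, 128.87, 148.16 and 170.86 in sucrose/palmitate, and 117.66, 175.97 and 287.29 in starch/palmitate. It had 122.98, 147.41 and 172.86 in sucrose/oleate, 138.25, 181.36 and 203.08 in starch/oleate, and 126.54, 168.99 and 183.86 in the Western diet. The starch/oleate libraries were all above chow, and the other diets overlapped it only at their lower ends. The log2 differences were 0.47 (edgeR adjusted p = 0.012), 0.73 (0.00011), 0.51 (0.00084), 0.74 (SE 0.12, 1.3e-06) and 0.61 (0.00018). Il1rl2, the IL-36 receptor, was called higher in every diet except starch/palmitate. In that diet Il1rl2 was 0.32 higher (SE 0.125, edgeR adjusted p = 0.05), at the threshold. It passed there by DESeq2 (0.32, 0.039) and not under TMM scaling (0.18, 0.24). Its values were 112.64, 128.72 and 162.88 in chow, 186.98, 207.54 and 241.31 in starch/oleate and 110.90, 216.02 and 258.81 in the Western diet. It differed from chow by 0.69 (SE 0.12, 4.2e-06) in starch/oleate, 0.69 (3.9e-05) in the Western diet, 0.47 (0.0016) in sucrose/oleate and 0.38 (0.032) in sucrose/palmitate by edgeR. The sucrose/palmitate call was lost without chow replicate 4 or sucrose/palmitate replicate 1, 6 or 7 (adjusted p up to 0.077).

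Il1r1, the signalling receptor of IL-1, averaged 532.75 ± 143.54 (SD, n = 8) in chow, 743.90 ± 222.26 (n = 8) in sucrose/palmitate, 760.75 ± 88.49 (n = 9) in starch/oleate and 781.09 ± 99.94 (n = 7) in the Western diet. It was 0.48 (edgeR adjusted p = 0.048), 0.51 (0.0078) and 0.55 (0.011) higher than in chow on the log2 scale in these diets. The sucrose/palmitate call was lost with any of 20 libraries left out. Il1r2, the decoy receptor that binds IL-1 without signalling, had 19.37, 25.77 and 31.89 (lowest, median, highest) in chow, 27.44, 35.95 and 166.52 in starch/palmitate, 32.10, 46.04 and 148.74 in starch/oleate and 24.17, 38.65 and 115.43 in the Western diet. In these diets other than chow, the highest values were in starch/palmitate replicate 1, starch/oleate replicate 6 and Western diet replicate 6, which had high epithelial genes. The other libraries with high epithelial genes, starch/oleate replicate 2 and starch/palmitate replicate 3, held 115.39 and 48.56. Il1r2 rose by 1.32 (SE 0.37, edgeR adjusted p = 0.002), 1.11 (0.03) and 1.01 (0.033) in starch/oleate, starch/palmitate and the Western diet. Without the 6 libraries standing apart, the differences were 0.84 (0.011), 0.50 (0.25) and 0.80 (0.033), and sucrose/oleate passed as well (0.79, 0.019). None of the 6 is from sucrose/oleate, which with all libraries differed by 0.79 (edgeR adjusted p = 0.095). In that diet replicate 2, the library with high lymph node genes, held 141.03 scaled counts and the next library 45.27. The starch/palmitate call was lost without chow replicate 4 or 6 or starch/palmitate replicate 1 or 4 (adjusted p up to 0.23). The Western diet call was lost without chow replicate 4 or 6 or Western diet replicate 4 or 6 (up to 0.16).

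Il18r1, which binds IL-18, had 53.82, 96.33 and 115.14 (lowest, median, highest) in chow and 142.43, 171.77 and 218.92 in starch/oleate, with no overlap. The gene rose there by 0.98 (SE 0.19, edgeR adjusted p = 3.3e-05). It also rose by 0.71 (0.0092) in starch/palmitate and by 0.56 (0.02) in sucrose/oleate. Leaving out starch/palmitate replicate 3 gave 0.55 (0.052), leaving out the 6 libraries standing apart gave 0.56 (0.057) in that diet, and leaving out chow replicate 8 or sucrose/oleate replicate 2 ended the sucrose/oleate call (0.48 at the lowest, 0.055). Il18rap, its accessory chain, averaged between 18.37 and 28.55 scaled counts by diet and was called in none. Its difference in starch/oleate was 0.525 (SE 0.25, edgeR adjusted p = 0.064). It passed there by DESeq2 (0.043) and without the 6 libraries standing apart (0.51, 0.045), and not under TMM scaling (0.21, 0.43). Il1r2, Il1r1, Il1rl2, Il18r1 and Il18rap follow one another on chromosome 1, with only Il1rl1, the IL-33 receptor, among them.

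The IL-17 receptor chains went separate ways. Il17ra, the chain that most IL-17 receptors share, had 222.94, 303.50 and 407.69 (lowest, median, highest) in chow and 364.64, 483.53 and 570.02 in starch/oleate, where it rose by 0.58 (SE 0.11, edgeR adjusted p = 1.7e-05). It was called in no other diet, but in sucrose/oleate it was near the threshold (0.26, edgeR adjusted p = 0.058). There it passed by DESeq2 (0.048), with the minimum mean count of 30 (0.049) and without the 6 libraries standing apart (0.036). It did not pass there under TMM scaling (0.08, 0.44). In the Western diet Il17ra differed by 0.20 (0.16), and by 0.30 (0.032) without the 6. Il17re, the chain specific to IL-17C, had 23.93, 38.28 and 59.24 in chow, 19.07, 43.39 and 49.48 in sucrose/palmitate, and 25.76, 50.59 and 207.37 in starch/palmitate. It had 10.43, 21.61 and 31.33 in sucrose/oleate, 10.83, 20.71 and 68.08 in starch/oleate, and 13.94, 22.09 and 59.36 in the Western diet. The gene fell by 0.90 (edgeR adjusted p = 0.043) in sucrose/oleate on the log2 scale, a call lost with any of 11 libraries left out (up to 0.097). Subtraction of the negative probe mean also ended this call. Il17re passed the negative probe threshold in 7 of 9 samples of each oleate group and 6 of 7 Western diet samples. In chow it passed in 8 of 8, so that its folds in those 3 diets rest partly on levels near background. The 6 libraries standing apart held 54.03 to 207.37 scaled counts of Il17re. Among all libraries the log2 difference from chow was -0.55 (edgeR adjusted p = 0.17) in starch/oleate and -0.42 (0.39) in the Western diet. In starch/palmitate it was 0.84 (0.074). None of the 6 came from chow or sucrose/oleate. Without the 6, the difference was -0.90 (0.00077) in sucrose/oleate, -1.18 (3e-05) in starch/oleate, -1.05 (0.00092) in the Western diet and 0.09 (0.81) in starch/palmitate. Il17rb, which binds IL-25, averaged 42.78 ± 14.66 (SD, n = 9) in starch/oleate and 70.38 ± 27.18 (n = 8) in chow and was called in no diet. Its difference in starch/oleate was -0.72 (edgeR adjusted p = 0.17), which passed in a fit of the compared groups only (0.015). Western diet replicate 2 held 355.45 of it, against a group median of 31.33.

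**Figure D4:**
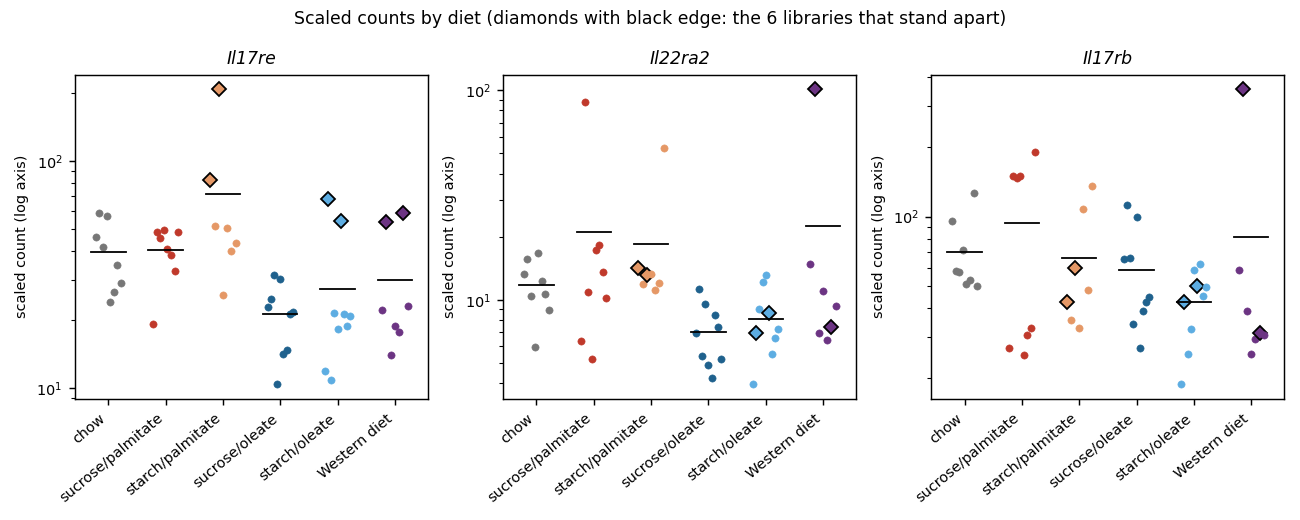
Scaled counts of Il17re, Il22ra2 and Il17rb by diet on a log axis, with a point for each library and diamonds for the 6 libraries that stand apart. Diamonds are the highest Il17re values of starch/palmitate, starch/oleate and the Western diet, and Western diet replicate 2 is the highest library of its diet for Il22ra2 (100.95) and Il17rb (355.45).

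The 4 custom diets allow the fatty acid and the carbohydrate to be compared with each averaged over the other. Under palmitate (15 samples) 9 of the 25 receptor genes were lower than under oleate (18 samples), where 23.6% of all genes were, and 2, Il17re and the background-level Il22ra2, passed as higher, where 10.8% did (34.4% of all genes in both directions). The median over the receptor genes was -0.23, against -0.05 over all genes. Il12rb2 averaged 28.26 under palmitate and 50.96 under oleate, a log2 difference of -0.82 (SE 0.15, edgeR adjusted p = 4.5e-05). Il7r averaged 588 and 924.6 (-0.66, SE 0.20, 0.011), and Il10rb 2545 and 3757 (-0.56, SE 0.10, 4.4e-05). Il27ra (-0.41, 0.019), Il11ra1 (-0.36, 0.024), Il2rb (-0.35, 0.038), Il17ra (-0.27, 0.0065), Il13ra1 (-0.26, 0.0093) and Il1rl2 (-0.23, 0.032) were also lower by edgeR. The Il11ra1 call was lost without starch/palmitate replicate 7 (-0.32, 0.053), that of Il1rl2 with any of 5 libraries left out and that of Il2rb with any of 12. All 9 were lower under palmitate with either carbohydrate, but with sucrose alone their edgeR adjusted p was 0.053 to 0.76. With starch alone Il12rb2, Il10rb, Il17ra, Il1rl2, Il11ra1, Il27ra and Il7r passed (0.00031 to 0.04). Il13ra1 (0.064) and Il2rb (0.27) did not.

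Il17re was higher under palmitate. It averaged 56.09 under palmitate and 24.27 under oleate (log2 difference 1.16, SE 0.25, edgeR adjusted p = 0.00063), and the difference was 1.10 (5.8e-06) without the libraries standing apart. With sucrose alone the difference was 0.92 (edgeR adjusted p = 0.11) and with starch alone 1.39 (0.0035). The call over both carbohydrates passed with the negative probe mean subtracted. Its size rests partly on levels near background, since 7 of 9 samples of each oleate group passed the negative probe threshold. Il22ra2 was the other gene counted as higher, but no fold is given, since it was above the negative probe threshold in 5 of 15 palmitate samples and 1 of 18 oleate samples. Its means were 19.75 and 7.574 scaled counts, and 12.1 and 7.57 without its 3 highest libraries. On the same scale the negative probes averaged 8.38 in sucrose/palmitate and 8.02 in starch/palmitate. They averaged 6.88 in sucrose/oleate and 7.23 in starch/oleate. Il17rb was not called among all libraries and was higher under palmitate without the 6 (0.73, 0.047).

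**Figure D5:**
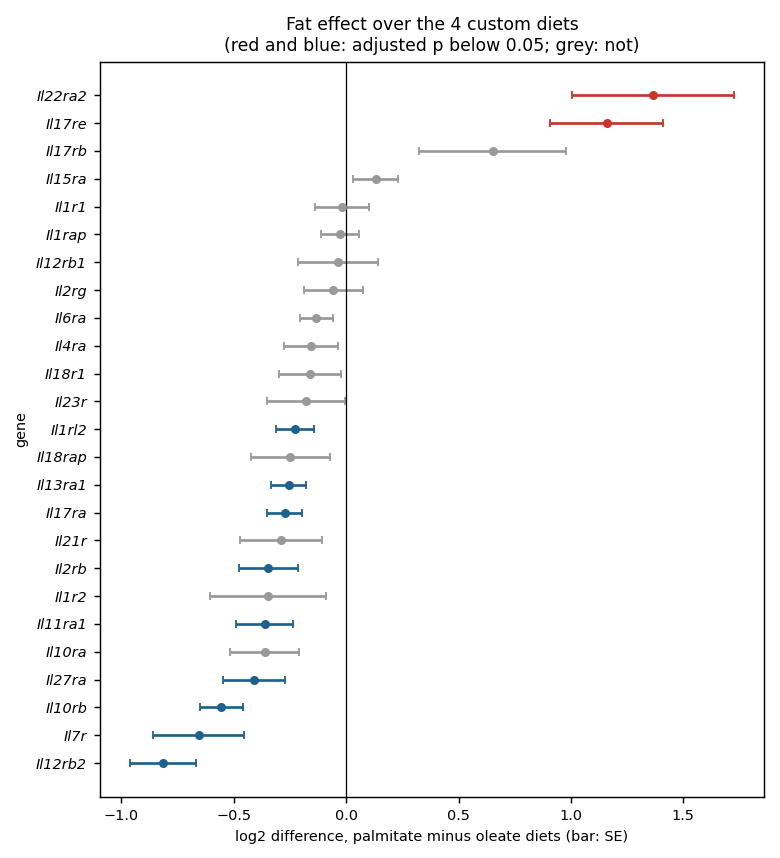
Log2 difference between palmitate and oleate diets for each of the 25 receptor genes, with bars of 1 SE. Genes in blue passed the test as lower under palmitate (9 genes) and genes in red as higher (Il17re and Il22ra2, the latter at the level of the negative probes).

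The carbohydrate made fewer differences. Il12rb2 (-0.44, SE 0.15, edgeR adjusted p = 0.048) and Il1rap (-0.25, SE 0.08, 0.049) were lower under sucrose than under starch, where 5.91% of all genes were lower, and 0 receptor genes were higher, where 4.07% were (9.98% in both directions). The Il12rb2 call was lost with any of 25 libraries left out and the Il1rap call with any of 39, and Il1rap differed by -0.13 (0.25) without the 6 libraries standing apart. Il21r differed by -0.52 (SE 0.18, edgeR adjusted p = 0.057) and was not called. It passed under TMM scaling (-0.44, 0.045), by DESeq2 (-0.52, 0.04) and without the 6 libraries standing apart (-0.61, 0.035). The carbohydrate by fat interaction passed for 0 receptor genes, against 5.5% of all genes (4.07% above 0 and 1.43% below), by edgeR and by DESeq2. At an unadjusted p under 0.05 it counted 2, Il17ra (0.42, SE 0.16, edgeR adjusted p = 0.13) and Il21r (0.77, SE 0.36, 0.24).

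Macrophage genes moved with several of these results. Of 11 macrophage marker genes, 4, 7, 8, 10 and 8 rose against chow in sucrose/palmitate, starch/palmitate, sucrose/oleate, starch/oleate and the Western diet, and 1 fell in sucrose/oleate and in the Western diet. Of all genes, 14.9%, 20.6%, 28.9%, 48.3% and 32.8% rose in this order of diets, the share to set beside each list here. In sucrose/oleate 7.74% of all genes fell and in the Western diet 7.94%. Under palmitate, where 23.6% of all genes were lower than under oleate, 7 of the 11 macrophage genes were lower. Their summed scaled counts (lowest, median, highest) were 3574, 9328 and 14100 in chow, 7426, 14300 and 24380 in sucrose/palmitate, and 8283, 15020 and 21970 in starch/palmitate. They were 15630, 21030 and 23910 in sucrose/oleate, 17740, 25730 and 30390 in starch/oleate, and 5943, 23120 and 28340 in the Western diet. T cell markers rose in 1, 6, 5, 8 and 5 of 15 genes, B cell markers in 6, 1, 2, 7 and 6 of 7 tested, and natural killer cell markers in 2, 3, 4, 7 and 2 of 8. Under TMM scaling these counts were 1, 6, 3, 5 and 3 for T cells, 5, 1, 2, 6 and 5 for B cells and 0, 2, 3, 4 and 2 for natural killer cells. Of all genes, 6.92%, 14.7%, 21.6%, 31.8% and 20.6% rose under TMM. Lymph node genes rose in 5, 0, 1, 9 and 4 of 11 tested, and their median sum was 605.2 in chow and 1446 in starch/oleate. Neutrophil markers rose in 0, 0, 2, 3 and 0 of 5 tested and mast cell markers in 1, 0, 0, 2 and 2 of 2. Cd8a and Cd79a were near the negative probes. The adipocyte genes summed to 83970, 119000 and 303900 (lowest, median, highest) in chow, and to 53010, 70210 and 73990 in starch/oleate and 23950, 62340 and 65500 in the Western diet, both wholly below chow. The part of these cells in the receptor results was not tested.

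Within diets, after the mean of each diet was taken away, 12 of the 25 receptor genes followed the summed macrophage markers over the 48 samples and 2 ran against them. Adjusted over the 480 tested genes outside the macrophage list, 48% of receptor genes and 36.2% of all those genes followed the markers, and 8% and 15.8% ran against them. The median r was 0.38 over the receptor genes and 0.24 over all. This relation was chosen after the data were seen, and the p-values are from 100000 permutations within diets, adjusted over the 25 genes. Il10rb gave Pearson's r = 0.93 and Spearman's rho = 0.93, Il10ra 0.92 and 0.89, Il7r 0.90 and 0.88, Il12rb2 0.79 and 0.73, and Il27ra 0.78 and 0.73. For all 5 genes both permutation p-values were 1e-05, the smallest that the permutations can give, and 3.1e-05 for r and 3.6e-05 for rho after adjustment. Without the 2 samples farthest from the median of the markers, r was 0.90, 0.89, 0.85, 0.68 and 0.72. Il2rg, Il11ra1, Il1rl2, Il17ra, Il21r, Il6ra and Il2rb followed with r of 0.75 to 0.38 (permutation p up to 0.0098 for r, adjusted 0.017, and up to 0.027 for rho, adjusted 0.049, both in Il2rb). Il17rb (r = -0.66, rho = -0.61) and Il17re (-0.52 and -0.60) ran against the markers (adjusted permutation p for r 0.00023 and 0.00029), with r of -0.61 and -0.47 without those 2 samples. Il13ra1 (r = -0.06), Il1rap (0.21), Il1r1 (-0.21), Il18r1 (0.16), Il1r2 (0.16) and Il23r (0.05), which rose against chow in 3 or more diets, did not pass. Under TMM scaling r was -0.44 for Il13ra1, -0.18 for Il1rap, -0.50 for Il1r1, -0.24 for Il18r1, 0 for Il1r2 and -0.18 for Il23r, and it was 0.86 for Il10rb, 0.89 for Il10ra, 0.89 for Il7r, 0.19 for Il6ra and 0.06 for Il2rb.

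Chains that form one receptor, or compete for a ligand as Il1r1 and Il1r2 do, were compared in the same way. Of 14 pairs of genes that were not near the negative probes, 5 passed with both r and rho. Il10ra and Il10rb gave r = 0.92 and rho = 0.89, a value that 0.393% of all gene pairs on the panel reached. Il21r and Il2rg gave 0.66 and 0.67, Il2rb and Il2rg 0.57 and 0.53, Il7r and Il2rg 0.57 and 0.46, and Il18r1 and Il18rap 0.56 and 0.58. The permutation p-values for r, adjusted over the 14 pairs, were 7e-05, 7e-05, 0.00095, 0.00021 and 0.00014 in this order, and those for rho 7e-05, 7e-05, 0.0019, 0.0043 and 9.3e-05. Each of the last 4 r values was matched or passed by 4.79% to 8.7% of all gene pairs. With the 2 samples farthest from the median left out, r was 0.89, 0.64, 0.54, 0.48 and 0.54 in this order. Under TMM scaling the pairs of Il10ra, Il21r and Il18r1 passed, with r of 0.81, 0.45 and 0.37. Il1r1 and Il1rap gave r = 0.35 and passed with r (adjusted permutation p = 0.047) but not with rho (0.071). The median r over all 120295 gene pairs was 0.12. Il4ra with Il13ra1 (0.25), Il4ra with Il2rg (-0.05), Il15ra with Il2rb (-0.01), Il1r1 with Il1r2 (0.05), Il17ra with Il17rb (-0.13), and gp130 (Il6st) with Il6ra (0.31), Il27ra (0.14) and Il11ra1 (-0.03) did not pass.

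Of 30 interleukin genes that encode ligands of these and related receptors, 15 were near the negative probes, among them Il2, Il4, Il5, Il17a, Il21, Il22 and Il23a. Of the other 15, 2, 2, 2, 5 and 2 rose against chow in the order of diets above, and 0, 0, 1, 1 and 1 fell. Of all genes, 14.9%, 20.6%, 28.9%, 48.3% and 32.8% rose and 2.24%, 4.68%, 7.74%, 12% and 7.94% fell. Under TMM scaling 1, 1, 1, 2 and 2 of the 15 rose and 0, 1, 3, 5 and 4 fell. There 6.92%, 14.7%, 21.6%, 31.8% and 20.6% of all genes rose and 5.91%, 11.2%, 15.5%, 25.9% and 14.3% fell. The median log2 difference of the 15 in starch/oleate was 0.27, against 0.34 over all genes. Ebi3, the subunit that IL-27 and IL-35 share, rose in all 5 diets, from a mean of 95.42 scaled counts in chow to 230.86 in starch/oleate (log2 difference 1.27). Il1a passed as higher in starch/oleate (edgeR adjusted p = 0.0016), where it was above the negative probe threshold in 7 of 9 samples, against 2 of 8 in chow, so that no fold is given. It averaged 20.22 scaled counts there and 6.10 to 12.48 in the other groups, around the minimum mean count of 10. Its place among the tested genes thus leaned on the group where it was high. Il1a is 1 of the 5 ligand genes counted as higher there, but its call is not read as a rise. Tslp, the ligand of Crlf2 and Il7r, fell in sucrose/oleate (-0.50), starch/oleate (-0.37) and the Western diet (-0.54).

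Among 7 shared subunits, inhibitors and receptors outside the rule, 1, 0, 4, 4 and 4 rose and 0, 0, 0, 1 and 1 fell. Their median was 0.76 in starch/oleate, against 0.34 over all genes. Of all genes, 14.9%, 20.6%, 28.9%, 48.3% and 32.8% rose and 2.24%, 4.68%, 7.74%, 12% and 7.94% fell. Under TMM scaling 0, 0, 4, 4 and 2 of the 7 rose and 0, 1, 0, 3 and 1 fell. There 6.92%, 14.7%, 21.6%, 31.8% and 20.6% of all genes rose and 5.91%, 11.2%, 15.5%, 25.9% and 14.3% fell. These shares also stand beside the lists below. Crlf2, which joins Il7r in the TSLP receptor, rose in sucrose/oleate (0.54), starch/oleate (0.76) and the Western diet (0.53). Il1rl1 rose in the same diets (0.74, 1.12 and 0.99). Il2ra, the high affinity IL-2 chain, rose in sucrose/palmitate (0.45; edgeR adjusted p = 0.2 under TMM) and fell in starch/oleate (-0.42) and the Western diet (-0.47). Of 15 Janus kinase and STAT pathway genes, 2, 2, 2, 5 and 3 rose and 0, 0, 0, 1 and 0 fell. In starch/oleate their median was 0.08, against 0.34 over all genes. Under TMM scaling 2, 1, 1, 2 and 2 rose and 0, 1, 3, 5 and 2 fell. Ptpn6, a phosphatase that dampens this signalling and is abundant in blood cells, rose in all 5 diets by 0.79, 1.09, 1.28, 1.72 and 1.30. Stat4 was called in sucrose/palmitate (2.07, edgeR adjusted p = 0.0059), where replicate 4 held 1191 scaled counts and the next library 61.39. Of 10 genes of IL-1 and IL-17 signalling, 0, 0, 4, 5 and 3 rose and 1 fell in each diet. In starch/oleate their median was 0.11, against 0.34 over all genes. Under TMM scaling 0, 0, 0, 1 and 1 rose and 1, 3, 3, 5 and 1 fell. Irak2, a kinase below the IL-1 receptor, fell in all 5 diets by 0.38, 0.34, 0.23, 0.52 and 0.52 on the log2 scale. Myd88, the adaptor of the IL-1 receptor family, rose by 0.29, 0.44 and 0.43 in sucrose/oleate, starch/oleate and the Western diet under reference gene scaling and was called in none of them under TMM.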

How the data were processed

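The authors deposited one table of raw counts per probe for 48 samples, per the labels' protocols from an nCounter panel. The counting software and its version are not given in the sources used here. The lowest value found among the receptor genes was 1. Counts were divided by the geometric mean of 14 reference genes. A minimum of 10 for the mean count left 491 of 547 genes, which were tested with edgeR 4.0.16 in R 4.3.3 (quasi-likelihood, all 48 samples, one mean per diet, 9 comparisons), adjusted by Benjamini-Hochberg over all 491, with a threshold of 0.05. The samples fall into diets by their labels. Alternatives were TMM scaling, no filter, a minimum mean count of 30, the replicate number as a block, fits of the compared groups only, DESeq2 1.42.0, subtraction of the negative probe mean, the positive control ratio as a covariate, and leaving out libraries. The edgeR step was tested on simulated data. Partner chains were compared as log2 scaled counts minus the mean of their diet, with 100000 permutations within diets. Genes given in full had a call in any comparison; of each pathway list, up to 3 genes with the smallest p for any difference were named. The receptor genes, lists and tests were chosen with earlier results of these data known. RefSeq windows were credited to GRCm38.p6. Of the replicate counts, no pair agreed within sampling noise (lowest chi-square per degree of freedom 5.14). Depth limits the genes near the negative probes.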

Additional observations from a re-analysis of the deposited data

Results flagged for a closer look

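In 26 of 150 groups of values (a gene in a diet) the highest or lowest library was farther from the others than Dixon's critical value allows. Chance flags about 1 in 20 groups. Western diet replicate 2 accounted for 10 of them. It was the lowest library of its diet for Il11ra1 (45.5, next 93.7 scaled counts), Il12rb2 (9.95, next 28), Il17ra (243, next 332), Il18rap (1.42, next 18.7), Il1rl2 (111, next 199), Il27ra (25.6, next 89), Il2rg (55.5, next 116) and Il7r (199, next 708). It was the highest for Il17rb (355, next 58.9) and Il22ra2 (101, next 14.7). The same library had the highest Clu count and the lowest summed macrophage markers of its diet (5943), and their part in these values was not tested.

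Sucrose/oleate replicate 2, the library with high lymph node and neutrophil genes, was the highest of its diet for Il4ra (1510, next 612) and Il1r2 (141, next 45.3) and the lowest for Il11ra1 (50.4, next 76.2). The part of those genes in these values was not tested. Starch/oleate replicate 6 and starch/palmitate replicate 1, both with high epithelial genes, were flagged for Il12rb2 (34.5, next 52.9) and Il13ra1 (791, next 658), and for Il1r2 (167, next 58.6).

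Single libraries were flagged for Il10rb in chow replicate 4 (1530, next 2080), Il11ra1 in chow replicate 7 (86.7, next 52.1) and Il17re in sucrose/palmitate replicate 1 (19.1, next 32.9). Il23r was flagged in sucrose/palmitate replicate 7 (66.8, next 30) and sucrose/oleate replicate 6 (11.3, next 21.8), and Il7r in starch/palmitate replicate 7 (301, next 525). Among the genes near the negative probes, Il22ra2 was flagged in sucrose/palmitate replicate 2 (87.3, next 18.2) and starch/palmitate replicate 7 (52.9, next 14.2), and Il12rb1 in starch/oleate replicate 3 (2.71, next 9.23) and Western diet replicate 1 (2.76, next 10.2).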

How the results depend on the processing

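Of 67 calls of a receptor gene in a comparison, 34 passed under every alternative run, 33 of these also with each library left out, and 0 reversed; 19 were lost when 1 library was left out. TMM scaling lost 13, the positive control ratio as a covariate 24, fits of the compared groups 9, the replicate block 7, subtraction of the negative probe mean 4, no filter 3, leaving out the 6 libraries standing apart 3, and the minimum mean count of 30 and DESeq2 0 each. The count in sucrose/palmitate was 6, and 3 under TMM and 1 in the fit of the compared groups; with single libraries left out it was 3 to 8 (3 without sucrose/palmitate replicate 1 or 7). In starch/palmitate it was 5, 0 with the positive control ratio, and 3 to 11 with libraries left out (3 without chow replicate 4 or 6 or starch/palmitate replicate 3 or 4, 11 without chow replicate 7, 8 without starch/palmitate replicate 7, 9 without Western diet replicate 2). In sucrose/oleate it was 14, and 1 with the positive control ratio. Between sucrose and starch it was 2, against 1 under TMM, which was Il21r and neither of the 2. In the fit of the compared groups it was 1 (Il12rb2). It was 0 with no filter, the replicate block, negative probe subtraction or the positive control ratio. With libraries left out it was 0 to 4 (4 without sucrose/oleate replicate 2). The interaction count was 0, and 1 without starch/palmitate replicate 4 or sucrose/oleate replicate 2. Partner chains gave 5 pairs, 3 under TMM and 7 without the 6 libraries. With libraries left out the other counts ran from 18 to 21 (any difference), 11 to 16 (sucrose/oleate), 18 to 20 (starch/oleate), 8 to 14 (Western diet) and 9 to 13 (palmitate against oleate). The cause was not tested. Samples with the same number in different diets did not deviate together (mean correlation -0.0151, against 0.00629 for different numbers), so the numbers do not pair them; with the replicate block 18 receptor genes differed among diets and 5, 4, 13, 19 and 10 were called against chow. Signal limits what can be said of Il12rb1 and Il22ra2, which the other thresholds for the negative probes also placed near them.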
